A study of Rattus norvegicus with 9 samples.

Results

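Runx2, Sp7, Dlx5, Bglap, Ibsp, Spp1, Sparc, Omd and Postn, 3 transcription factors and 6 secreted proteins of the osteoblast, were followed through the bone transcriptome of ovariectomized rats given Astragaloside IV (AS-IV). They were picked by name and are 9 of the 23026 genes in the table. The 9 libraries came from female Sprague–Dawley rats bought at 8 weeks of age, kept for 1 week and then operated on. In Sham, only fat tissue beside the ovary was taken. In OVX, both ovaries were removed to model postmenopausal osteoporosis (PMOP in the labels), and the rats received 1% sodium carboxymethyl cellulose (CMC-Na). OVX-AS-IV-High, called the treated group below, had the same ovariectomy and AS-IV at 80 mg/kg, which per the methods was dissolved in 1% CMC-Na. Gavage began 6 weeks after surgery and was given daily for 8 weeks, and each group had 3 libraries. The labels name the tissue as bone, the methods describe a frozen femur for molecular work, and neither says that the marrow was removed.

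The labels give the 3 Sham libraries different vehicles, 1% CMC-Na for replicate 1, 2% for replicate 2 and 3% for replicate 3, whereas the methods give 1% throughout, so Sham values are shown library by library. These percentages equal the replicate numbers, and whether the Sham rats truly received different vehicles cannot be told. Depth was even, from 34874880 to 37298250 counts per library, and the smallest count of any of the 9 genes in any library was 395 (Dlx5 in treated replicate 1). All 9 genes passed the filter on low counts, as did 16874 genes in all. By edgeR, 0 genes passed an adjusted p of 0.05 in any comparison, while 2775 genes in OVX vs Sham, 1089 in treated vs OVX and 2978 in treated vs Sham had an unadjusted p under 0.05. DESeq2 gave an adjusted p under 0.05 to 834, 37 and 1009 genes in the same order. A gene is called changed here at an unadjusted p under 0.05 with an absolute log2 fold change (log2FC) above 1. Blood-forming markers were abundant: the summed level of 15 erythroid genes lay between 46965 and 80460 CPM (counts scaled to a common library size after TMM) over the 9 libraries. In such a tissue mixture, fewer osteoblasts and less RNA per osteoblast cannot be told apart.

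Osteoblasts arise from mesenchymal progenitors. Runx2 commits these cells to the lineage and binds a short DNA motif together with its partner Cbfb, Dlx5 is a homeobox factor that acts in early osteoblast and limb development, and Sp7 (osterix) is a zinc finger factor needed for maturation downstream of Runx2. Cells of the osteoblast lineage fill the type I collagen matrix with non-collagenous proteins. Among these are osteocalcin (Bglap), bone sialoprotein (Ibsp), osteopontin (Spp1), osteonectin (Sparc), osteomodulin (Omd) and periostin (Postn). In the annotation deposited with the tables, osteoblast differentiation was attached to 5 of the 9 genes (Runx2, Sp7, Dlx5, Bglap and Spp1), against 0.651% of 16907 annotated genes, and extracellular space to all 6 matrix genes.

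RefSeq promoter sequences (assembly GRCr8) were at hand for 7 of the 9 genes. They were searched on both strands for ACCACA, 1 form of the core of the RUNX motif. The search was made because Bglap is a textbook target of Runx2 and was the gene with the largest difference below. The 250 bases before the start site follow for 4 genes, read 5′ to 3′ on the strand of the gene, with ACCACA in capitals. They are Bglap (chr2:176137319-176137568, minus strand), Runx2 (chr9:23664808-23665057, plus strand), Sparc (chr10:40038817-40039066, minus strand) and, as a window without a match, Ibsp (chr14:5757243-5757492, minus strand).
Bglap: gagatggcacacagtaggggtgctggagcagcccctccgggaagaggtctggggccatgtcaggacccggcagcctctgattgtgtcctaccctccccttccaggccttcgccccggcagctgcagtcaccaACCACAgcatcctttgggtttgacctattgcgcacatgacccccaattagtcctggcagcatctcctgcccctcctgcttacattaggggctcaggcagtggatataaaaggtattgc
Runx2: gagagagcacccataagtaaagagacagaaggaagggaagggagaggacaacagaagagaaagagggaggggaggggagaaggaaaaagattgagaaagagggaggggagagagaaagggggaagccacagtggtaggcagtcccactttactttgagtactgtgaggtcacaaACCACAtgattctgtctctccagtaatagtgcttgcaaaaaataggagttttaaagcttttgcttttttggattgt
Sparc: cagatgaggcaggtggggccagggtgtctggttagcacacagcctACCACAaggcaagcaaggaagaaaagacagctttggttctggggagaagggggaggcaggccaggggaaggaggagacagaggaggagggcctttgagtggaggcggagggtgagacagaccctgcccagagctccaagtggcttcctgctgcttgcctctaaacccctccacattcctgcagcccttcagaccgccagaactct
Ibsp: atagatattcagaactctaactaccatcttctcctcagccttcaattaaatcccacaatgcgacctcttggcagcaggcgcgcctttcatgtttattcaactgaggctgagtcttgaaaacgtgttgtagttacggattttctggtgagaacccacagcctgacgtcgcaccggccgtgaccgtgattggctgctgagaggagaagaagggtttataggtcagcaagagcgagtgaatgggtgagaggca
With the base before the start site counted as -1, ACCACA lay at -118 to -113 in Bglap, at -76 to -71 in Runx2 and at -205 to -200 in Sparc. The table holds another window for Runx2 (chr9:23742990-23743239), which has no match. ACCACA thus occurred in 3 of the 8 windows of these 7 genes and in 14.5% of 33469 RefSeq promoter windows of this length. The 7-letter form AACCACA, which contains it, was found in Bglap and Runx2 and in 4.59% of all windows. Forms of the RUNX core with other letters were not searched, so a window without ACCACA may still hold one. A match describes the letters alone and shows no binding.

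The 3 regulators were the genes with the lowest levels per length among the 9. Runx2 stood at 83.2, 68.9 and 72.1 CPM in Sham replicates 1 to 3, at 61.6, 86.1 and 72.3 in OVX, and at 87.2, 96.6 and 68.9 in the treated libraries. The groups overlapped, and the widest gap between any 2 of the 9 libraries was 1.57-fold. Its log2FC was -0.03 in OVX vs Sham (standard error (SE) 0.16), with a 95% confidence interval from -0.38 to 0.33, and 0.20 in treated vs OVX (SE 0.16), with an interval from -0.15 to 0.55. No call was made for Runx2, and both intervals lie within a 2-fold difference in either direction.

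Sp7 measured 20.1, 17.1 and 30.1 CPM in Sham, 25.5, 28.2 and 34.0 CPM in the OVX libraries, and 17.9, 29.5 and 29.8 CPM in the treated ones. Sham replicate 3 lay inside the OVX range, so that the groups overlapped although the other 2 Sham libraries were below all OVX libraries. The log2FC in OVX vs Sham was 0.38 (SE 0.25, interval -0.18 to 0.95), and after AS-IV it was -0.19 relative to OVX (SE 0.25, interval -0.75 to 0.38). Dlx5 measured 15.2, 12.6 and 14.4 CPM in Sham, 15.2, 14.6 and 18.2 CPM in the OVX libraries, and 10.9, 14.2 and 17.2 CPM in the treated ones. Its groups overlapped as well, with a log2FC of 0.18 in OVX vs Sham (SE 0.18, interval -0.22 to 0.59) and -0.18 in treated vs OVX (SE 0.18, interval -0.59 to 0.22). Of the 3 regulators, 0 were called in any comparison.

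Bglap encodes osteocalcin, a small vitamin K-dependent protein secreted by mature osteoblasts and used in serum as a marker of bone formation. It was the 1 gene of the 9 that passed the thresholds. Sham replicates 1 to 3 held 7695, 11372 and 18189 counts, which correspond to 211, 334 and 512 CPM. OVX libraries held 23341, 36197 and 31486 counts, or 636, 955 and 854 CPM. In the treated libraries the counts were 11746, 32688 and 22980, or 323, 885 and 632 CPM. Every OVX library lay above every Sham library, whereas the treated libraries spanned from within the Sham range to within the OVX range.

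Bglap averaged 352 ± 151 CPM in Sham, 815 ± 163 CPM after ovariectomy and 613 ± 281 CPM with AS-IV (SD, n = 3 for each mean). OVX exceeded Sham 2.31-fold, a log2FC of 1.21 (SE 0.39, interval 0.33 to 2.09), with an adjusted p = 0.199 by edgeR. The two-sided exact permutation test over the 6 libraries gave p = 0.1, the smallest that 3 against 3 allow. Among all genes tested, 23.3% did not overlap between OVX and Sham and 3.11% were called. DESeq2 gave Bglap an adjusted p = 0.0255, with adjusted values from 0.0255 to 0.465 over the alternatives.

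The size of this difference depended on the Sham libraries. Without Sham replicate 1, the one Sham library labelled with the 1% CMC-Na of OVX, the log2FC was 0.94 and no longer past the threshold. Without Sham replicate 3 it was 1.58. Bglap was the lowest in the Sham library labelled 1% CMC-Na and the highest in that labelled 3%, although the methods give 1% for all. With 1 library at each label, an effect of the vehicle, if it differed at all, cannot be told apart from a difference between rats.

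Bglap was not called in treated vs OVX. Its log2FC in treated vs OVX was -0.41 (SE 0.39, interval -1.28 to 0.46), adjusted p = 0.942 in edgeR, and 1 of the 3 treated libraries lay inside the OVX range of 636 to 955 CPM while the other 2, at 323 and 632, lay below it. The log2FC was -0.10 without treated replicate 1 and -0.77 without treated replicate 2. The methods describe independent replicates, so setting libraries side by side by replicate number is an assumption. Taken this way, Bglap was lower in the treated library in 3 of 3 pairs (323 against 636, 885 against 955 and 632 against 854 CPM). With the replicate number as a block the log2FC was -0.50 (SE 0.22, adjusted p = 0.653 in edgeR). Dlx5, Ibsp and Sparc were also lower in 3 of 3 pairs, which makes 4 of the 9 genes, beside 16.6% of all genes tested, and 0 of the 9 were higher in 3 of 3. This count was taken after the values had been seen. Bglap and Sparc varied together over the 9 libraries (Pearson r = 0.85), so the 4 genes are not 4 separate results. Against Sham, the treated libraries had a log2FC of 0.80 (SE 0.39, adjusted p = 0.320 by edgeR). This comparison passed the thresholds without Sham replicate 3 (1.17) or without treated replicate 1 (1.11). Both comparisons of OVX use the same OVX libraries, and both comparisons of Sham the same Sham libraries, so their values are not independent.

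**Figure D1:**
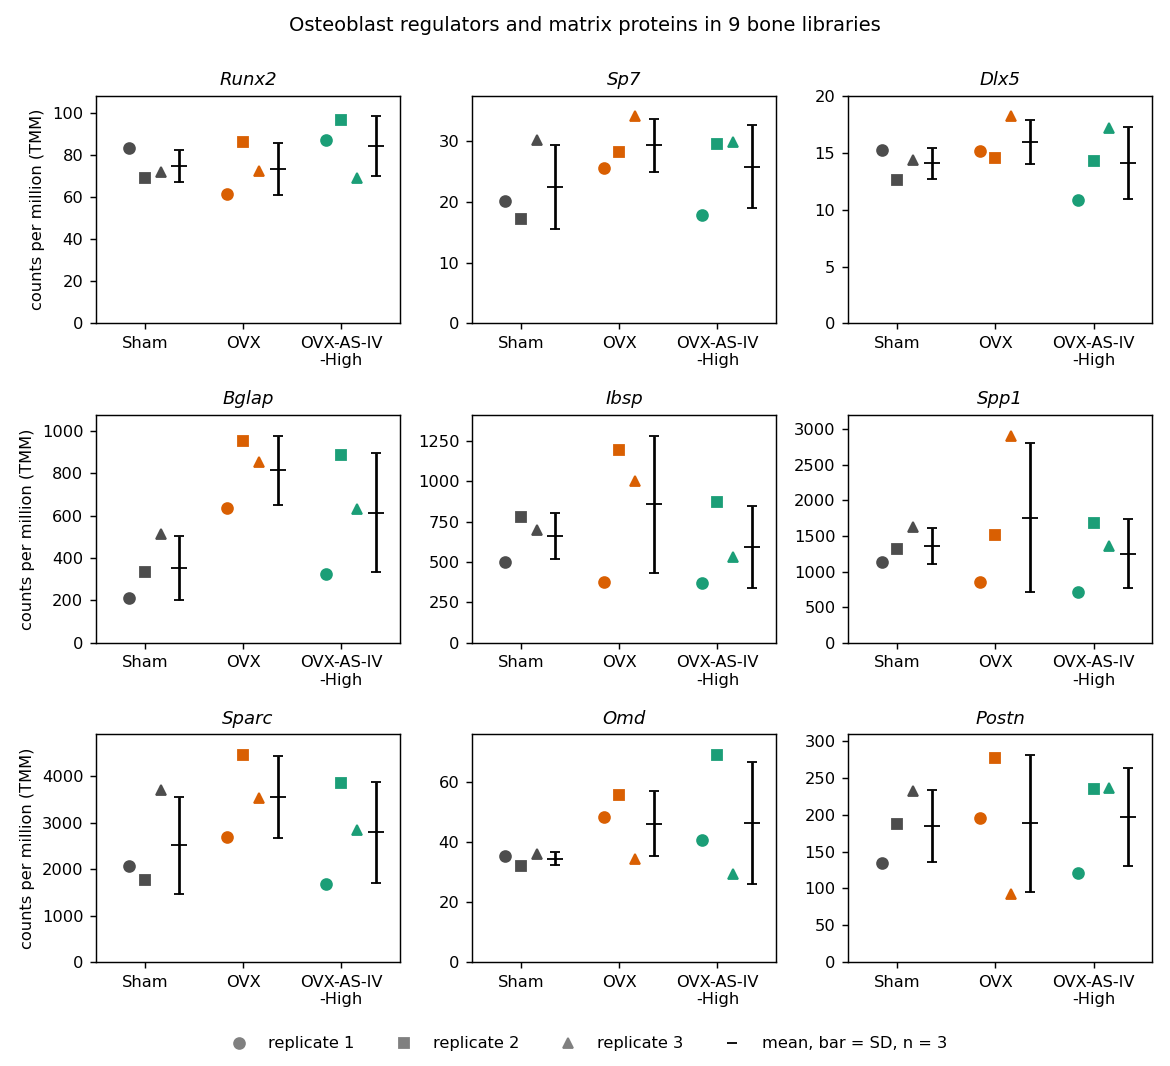
CPM of the 9 genes in each library (vertical axis from 0, 1 panel per gene), by group on the horizontal axis. Symbols mark replicates 1 to 3, and the black mark and bar beside them the mean and SD of 3 libraries. Bglap is the panel in which all 3 OVX libraries, at 636 to 955 CPM, sit above all 3 Sham libraries, at 211 to 512 CPM.

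Ibsp encodes bone sialoprotein, an acidic phosphoprotein that nucleates mineral. It measured 500, 777 and 700.0 CPM in Sham, 378, 1191 and 998 CPM in the OVX libraries, and 373, 868 and 534 CPM in the treated ones. OVX replicates 2 and 3 were above all Sham libraries and OVX replicate 1 was below all of them, so the groups overlapped. The log2FC was 0.38 in OVX vs Sham (SE 0.42) and -0.53 in treated vs OVX (SE 0.42, interval -1.48 to 0.41), with adjusted p-values of 0.655 and 0.922 in edgeR. With each library left out, the first ranged from 0.07 (without OVX replicate 2) to 0.73 (without OVX replicate 1) and the second from -0.92 (without treated replicate 2) to -0.22 (without OVX replicate 2).

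Spp1 encodes osteopontin, a phosphoprotein to which osteoclasts attach and which macrophages and other cells also make. Its levels were 1135, 1319 and 1628 CPM in Sham, 848, 1519 and 2905 CPM in the OVX libraries, and 717, 1678 and 1359 CPM in the treated ones. The groups overlapped: OVX held both a library below all Sham libraries and, with 107100 counts in replicate 3, the highest of the 9. The log2FC in OVX vs Sham was 0.37 (SE 0.43) and turned to -0.20 without OVX replicate 3, and that in treated vs OVX was -0.49 (SE 0.43) and turned to 0.08 without the same library.

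Sparc encodes osteonectin, a collagen- and calcium-binding glycoprotein also made by fibroblasts and endothelial cells. It measured 2065, 1768 and 3706 CPM in Sham, 2688, 4448 and 3526 CPM in the OVX libraries, and 1670, 3854 and 2842 CPM in the treated ones. Sham replicate 3 lay above OVX replicates 1 and 3, and the groups overlapped. The log2FC was 0.50 in OVX vs Sham (SE 0.35, interval -0.30 to 1.30) and -0.35 in treated vs OVX (SE 0.35), the latter between -0.66 without treated replicate 2 and -0.09 without treated replicate 1.

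Omd, a small keratan sulfate proteoglycan of mineralized matrix, was the most even of the matrix genes in Sham, at 35.5, 32.0 and 36.0 CPM. OVX libraries measured 48.5, 55.9 and 34.4 CPM, and treated libraries 40.8, 69.1 and 29.5. In both ovariectomized groups 2 libraries were above Sham and replicate 3 was not. The log2FC was 0.42 in OVX vs Sham (SE 0.28) and 0.43 in treated vs Sham (SE 0.28), with edgeR adjusted p-values of 0.457 and 0.459. The latter was 0.03 without treated replicate 2 and 0.67 without treated replicate 3.

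Postn encodes periostin, a protein of the periosteum and of other collagen-rich tissues such as tendon. It measured 134, 188 and 232 CPM in Sham, 195, 277 and 92.4 CPM in the OVX libraries, and 121, 234 and 236 CPM in the treated ones. The groups overlapped, and the lowest library (3406 counts) and the highest (10508 counts) were both OVX libraries. Its log2FC was 0.03 in OVX vs Sham (SE 0.39) and 0.07 in treated vs OVX (SE 0.39), with intervals from -0.85 to 0.91 and from -0.82 to 0.95 that leave nearly 2-fold differences undetermined.

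In all, 1 of the 9 genes was called in OVX vs Sham, beside 3.11% of all genes tested. In treated vs OVX, 0 of 9 were called, beside 0.83% of all genes, and in treated vs Sham 0 of 9, beside 3.15%. Genes whose libraries did not overlap were 1 of 9, 0 of 9 and 0 of 9, beside 23.3%, 12.7% and 19.9% of all genes. The log2FC was above 0 for 8 of the 9 genes in OVX vs Sham, Runx2 being the exception, beside 49.2% of all genes tested, with a median of 0.38 against -0.01. In treated vs OVX it was below 0 for 6 of 9, beside 53.3% of all genes, with a median of -0.19 against -0.02. In treated vs Sham it was above 0 for 7 of 9, beside 48.4%, with a median of 0.15 against -0.01, and this median fell to -0.01 without treated replicate 2. These signs are a description, since 26 of the 27 intervals include 0.

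**Figure D2:**
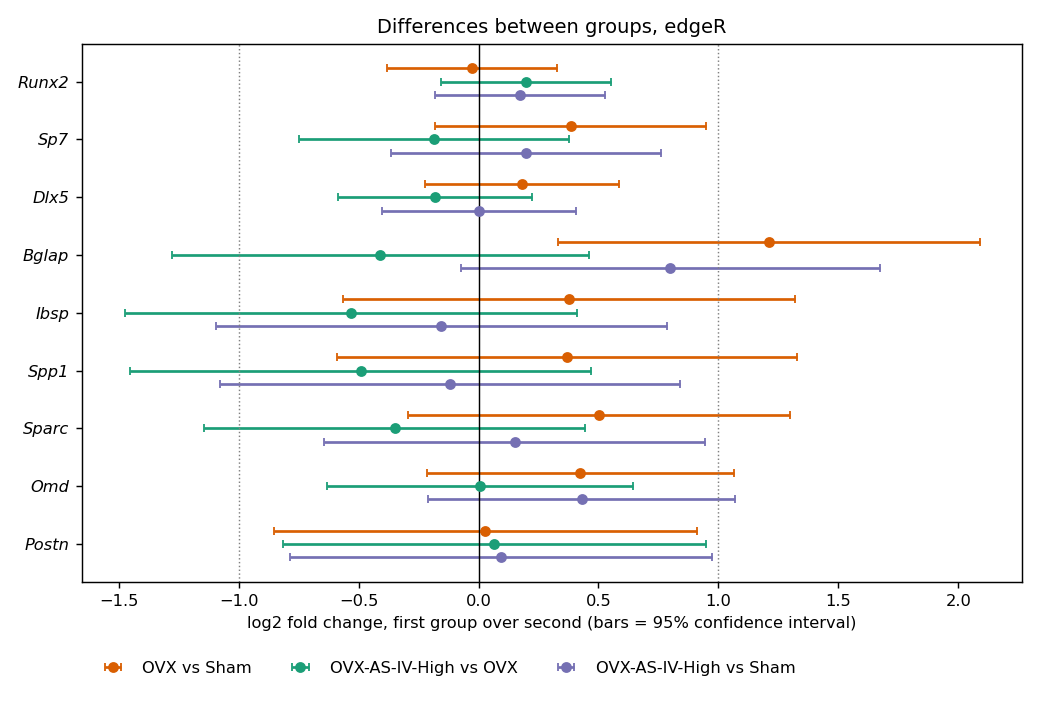
Log2FC of each gene in the 3 comparisons from edgeR (horizontal axis, first group over second), with bars for the 95% confidence interval and dotted lines at -1 and 1. The bar of Bglap in OVX vs Sham, from 0.33 to 2.09, is the only one of the 27 that does not cross 0.

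The mean levels of all 6 matrix genes per length were above those of the 3 regulators, with Omd and Postn the closest to them. Per length of transcript, in FPKM averaged over the 9 libraries, Sparc had 1388, Bglap 1223, Spp1 947, Ibsp 363, Postn 55.9, Omd 23.6, Dlx5 9.91, Sp7 8.14 and Runx2 5.35. Sparc, Bglap and Spp1 ranked 49, 57 and 76 among all genes. Ibsp held place 4, Postn place 5, Omd place 6 and Dlx5 place 7 of the 9 genes in each of the 9 libraries. The order varied at the top 3 and the bottom 2 places alone: Bglap held place 3 in each Sham library and place 1 or 2 in each OVX and treated library, and Sp7 exceeded Runx2 in 8 of 9 libraries. The ranges of Sparc (763 to 2147 FPKM), Bglap (441 to 2018) and Spp1 (453 to 1891) overlapped. So did the ranges of Spp1 and Ibsp, of Postn and Omd, of Dlx5 (7.12 to 12.3) and Sp7 (5.26 to 10.7), and of Sp7 and Runx2 (4.31 to 6.64), whereas Ibsp lay above Postn and Omd above Dlx5 in every library. The deposited values imply a length of 14463 bases for Runx2 and 487 for Bglap, so levels per length and CPM rank these genes differently.

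**Figure D3:**
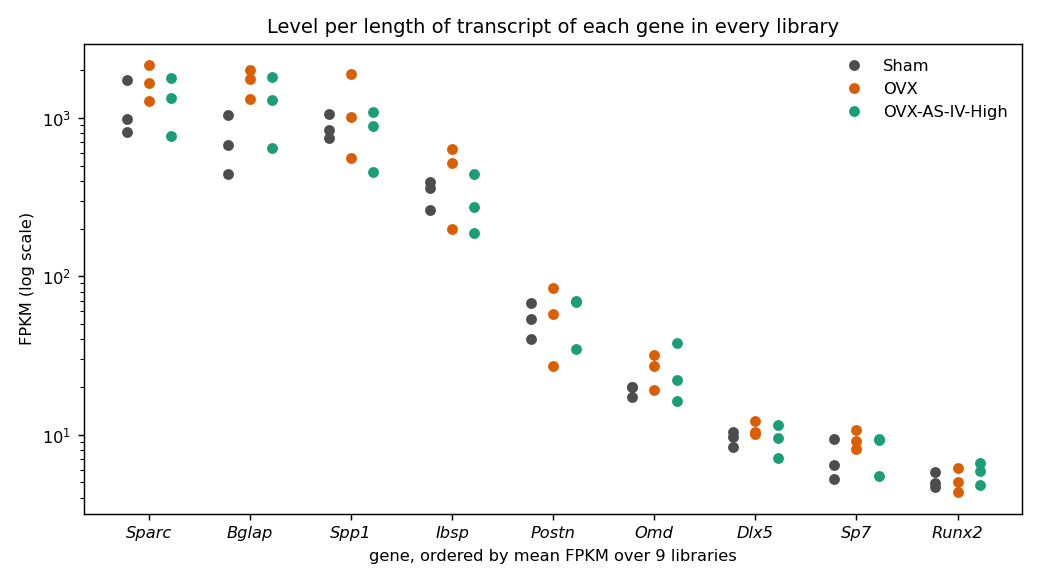
FPKM of the 9 genes (log axis) in every library, ordered by mean FPKM, with 1 point per library coloured by group. Levels fall from 1388 FPKM for Sparc to 5.35 for Runx2, and Bglap is the gene in which the Sham points lie below all OVX points.

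As a share of each library, the 9 genes took 0.427%, 0.441% and 0.688% of the Sham counts, 0.495%, 0.882% and 0.855% of the OVX counts, and 0.327%, 0.768% and 0.576% of the treated ones. Replicate 1 was the lowest library of each group, and the groups overlapped. Spread within a group differed by gene. The coefficient of variation in Sham was 6.39% for Omd, 9.55% for Dlx5 and 10.0% for Runx2, against 41.5% for Sparc and 43.0% for Bglap. In OVX it reached 59.7% for Spp1, 49.6% for Ibsp and 49.2% for Postn, while Bglap had 20.0%.

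To set osteocalcin against other osteoblast genes of the same library, the ratio of its FPKM to that of 5 genes was taken. These ratios were chosen after the levels had been seen. Relative to Runx2, Bglap stood at 307 to 351 in OVX and at 75.5 to 211 in Sham, a 2.49-fold difference without overlap. The treated libraries, at 110 to 272, lay below all OVX libraries, a ratio of 0.613 to OVX or -0.71 on the log2 scale, which became -0.27 without treated replicate 1. Each of the 2 comparisons had p = 0.1 in the two-sided exact permutation test, the smallest possible, and an adjusted p = 0.188 over the 15 ratios and comparisons. Of all genes tested, 6.42% stood higher relative to Runx2 in OVX than in Sham without overlap, and 4.60% stood lower in the treated group than in OVX.

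Relative to Sp7, Bglap was 163 to 220 in OVX and 68.8 to 127 in Sham. Relative to Ibsp it was 3.19 to 6.70 in OVX and 1.68 to 2.91 in Sham, and relative to Sparc 0.940 to 1.06 and 0.448 to 0.826. OVX lay above Sham without overlap for each of these (exact permutation p = 0.1), as did 0.966%, 0.456% and 0.516% of all genes relative to Sp7, Ibsp and Sparc. The treated libraries lay above Sham without overlap relative to Ibsp (3.46 to 4.71) and Sparc (0.848 to 1.01), as did 3.49% and 1.07% of all genes. Relative to Col1a1, the main collagen chain of bone, Bglap was 1.26 to 1.32 in OVX and 0.853 to 1.40 in Sham, which overlapped, and 1.38 to 1.51 in the treated libraries, above all OVX libraries, as were 9.03% of all genes. Relative to 4 of the 5 genes Bglap thus lay higher in OVX than in Sham without overlap, and relative to Col1a1 the libraries overlapped. All 5 ratios share Bglap, whose own levels did not overlap between OVX and Sham. They are therefore not independent of one another or of that comparison.

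**Figure D4:**
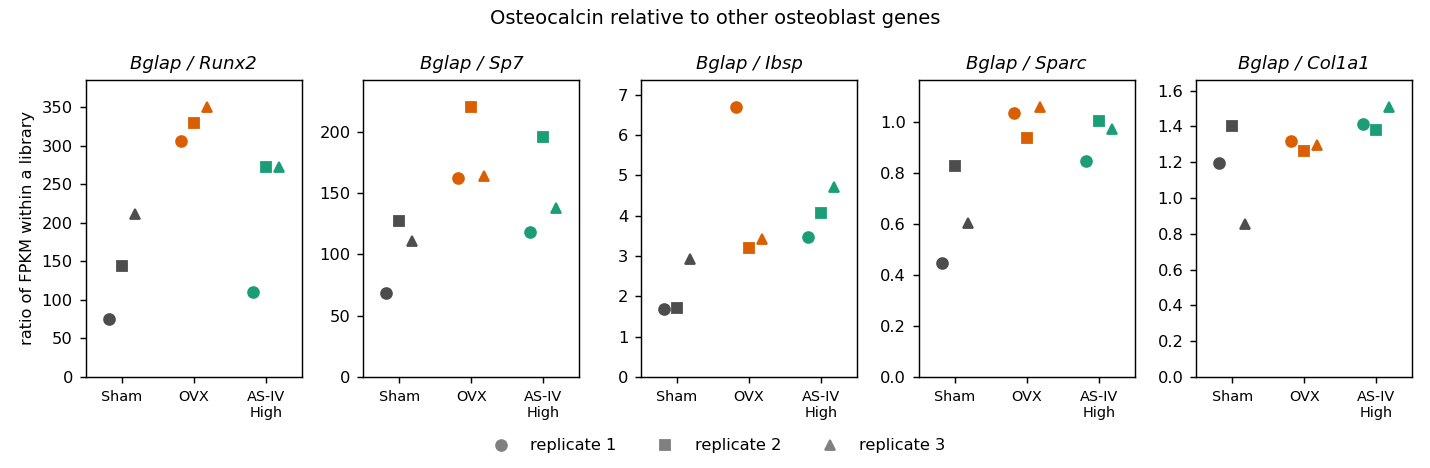
FPKM of Bglap divided by that of Runx2, Sp7, Ibsp, Sparc or Col1a1 in the same library (vertical axes from 0, symbols for replicates). In the first 4 panels the OVX points lie above the Sham points, and relative to Runx2 the treated points (110 to 272) also lie below the OVX points (307 to 351). Relative to Col1a1 OVX and Sham overlap.

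Correlations between the 9 genes were taken across the 9 libraries. Of the 36 pairs, 30 had a Pearson r of log2 CPM above 0, with a median of 0.41, and 0 pairs had an adjusted permutation p under 0.05. The highest was Sp7 with Sparc (r = 0.90, permutation p = 0.00197, adjusted p = 0.0572, Spearman's rho = 0.70, permutation p = 0.0444, adjusted p = 0.228), and r was 0.75 without the 2 libraries farthest from the median of Sp7. Bglap with Sparc had r = 0.85 and rho = 0.83 (permutation p = 0.00477 and 0.00886, adjusted p = 0.0572 and 0.155), and r was 0.85 without the 2 farthest libraries. Ibsp with Spp1 had r = 0.83 and rho = 0.83 (permutation p = 0.00436 and 0.00803, adjusted p = 0.0572 and 0.155), falling to r = 0.60 without the 2 farthest. Runx2 with Dlx5 had the lowest r, -0.35 (permutation p = 0.360, adjusted p = 0.617, rho = -0.30, permutation p = 0.437, adjusted p = 0.753), and -0.04 without the 2 farthest. After the group means were subtracted, the median r was still 0.41 and 30 pairs were above 0, with 0.88, 0.89, 0.81 and -0.27 for these 4 pairs.

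The genes whose levels ran most like each member over the 9 libraries were sought among 10359 genes with a mean of at least 10 CPM. Bglap was closest to Pygb (glycogen phosphorylase, Pearson r = 0.99), Cdh2 (N-cadherin, r = 0.98) and Cnot8 (r = 0.98), Sparc to Fat3, Fkbp7 and Dpp7 (r from 0.96 to 0.97), and Sp7 to Trappc3, Krr1 and Flt4 (r from 0.96 to 0.97). Ibsp was closest to Mrc2, a collagen receptor (r = 0.93), Mt2A and Bmp8a. Spp1 was closest to Ccn4, a Wnt-inducible matrix protein (r = 0.92), Ifitm3 and Pitpnb. For Runx2 the closest was Stim2 (r = 0.90), for Dlx5 Eif4ebp1 (r = 0.93), for Omd Crybg3 (r = 0.91) and for Postn Lrrc49 (r = 0.93). These neighbours are the top of 10359 candidates over only 9 libraries and are given as a description.

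Among 21 other osteoblast regulators tested, 0 were called in OVX vs Sham or in treated vs OVX, and 1 was called in treated vs Sham. This was Cbfb, the DNA-binding partner of the RUNX factors, with 4249, 2964 and 4284 counts in Sham replicates 1 to 3, 4916, 5169 and 5235 after ovariectomy, and 10334, 8864 and 5498 in the treated libraries. The 3 groups did not overlap. Cbfb had a log2FC of 1.06 in treated vs Sham (SE 0.21, adjusted p = 0.10 in edgeR) and 0.71 in treated vs OVX (SE 0.21, adjusted p = 0.652). The call in treated vs Sham was lost without treated replicate 1 (0.86) or Sham replicate 2 (0.93). Runx1, a paralog of Runx2 prominent in blood cells, had a log2FC of 0.27 in OVX vs Sham (SE 0.11) and was not called. Its OVX libraries nevertheless all lay above its Sham libraries. Of the 21 regulators, 5 were higher in OVX than in Sham without overlap and 1 was lower, beside 12.7% and 10.6% of all genes.

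Among 30 other bone matrix genes tested, 1 was called in OVX vs Sham and 0 in the other 2 comparisons. Lox, the enzyme that cross-links collagen, had 942, 578 and 1316 counts in Sham replicates 1 to 3, 1491, 3261 and 1450 after ovariectomy, and 1546, 2818 and 1216 with AS-IV, with a log2FC of 1.05 in OVX vs Sham (SE 0.41, adjusted p = 0.258 in edgeR). The call of Lox was lost without Sham replicate 1 (1.03), Sham replicate 2 (0.82) or OVX replicate 2 (0.59), with the replicate number as a block (0.92) and in limma on log2(FPKM + 1) (0.93). Without Sham replicate 3, 6 genes of this list were called in OVX vs Sham and 6 in treated vs Sham. Col1a1 had a log2FC of 0.90 (SE 0.48) and Col1a2 one of 0.87 (SE 0.50) in OVX vs Sham, with overlapping libraries and no call. The median log2FC of these 30 genes was 0.07 in OVX vs Sham, beside 0.40 for the 6 matrix genes described above. Of the 30, 4 were higher in OVX than in Sham without overlap and 1 was lower, beside 12.7% and 10.6% of all genes.

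Of 18 mineralization and osteocyte genes tested, 1 was called in OVX vs Sham, 0 in treated vs OVX and 1 in treated vs Sham. Fgf23, the phosphate-lowering hormone of osteocytes, fell in OVX vs Sham, from 197, 131 and 271 counts to 72, 74 and 99 (log2FC -1.35, SE 0.46, adjusted p = 0.208 in edgeR), a call that was lost without Sham replicate 3 (-1.07). Phex, a peptidase of the same phosphate pathway, rose in treated vs Sham with overlapping libraries (log2FC 1.03, SE 0.38, adjusted p = 0.216 in edgeR), which was lost without Sham replicate 1 (0.95), Sham replicate 2 (0.83) or treated replicate 2 (0.69). The late osteoblast gene Ifitm5 (log2FC 0.38, SE 0.41), the alkaline phosphatase gene Alpl (0.18, SE 0.26) and the osteocyte genes Dmp1 (-0.05, SE 0.40) and Sost (0.09, SE 0.28) were not called in OVX vs Sham. Of the 18, 3 (Fgf23, Phospho1 and Slc20a1) were lower in OVX than in Sham without overlap, beside 10.6% of all genes, and 0 were higher. Phospho1 had a log2FC of -0.45 (SE 0.13, adjusted p = 0.167 in edgeR) and Slc20a1 one of -0.42 (SE 0.095, adjusted p = 0.140 in edgeR). Neither was called, and both were also lower without overlap in treated vs Sham.

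Some of the 9 genes sit beside relatives on the chromosome. In the RefSeq gene order, Spp1, Mepe, Ibsp, Dmp1 and Dspp follow each other, Omd lies between Ogn and Aspn, and Dlx6 is next to Dlx5. Of the 10 neighbours and paralogs tested, 0 were called in any comparison. Mepe, between Spp1 and Ibsp, had a log2FC of -0.18 in OVX vs Sham (SE 0.36), Ogn and Aspn had 0.40 (SE 0.34) and -0.08 (SE 0.41), and Dlx6 had 0.12 (SE 0.23).

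Markers of other cell types moved alongside in the same comparison. Of 10 adipocyte genes, 5 were called in OVX vs Sham, all higher (Adipoq, Plin1, Cidec, Lep and Retn), and their summed level over all 10 was 524 to 737 CPM in Sham, 785 to 1043 in OVX and 778 to 1056 in the treated libraries. Without Sham replicate 2 or OVX replicate 2, 3 of them were called. In treated vs Sham 5 of the 10 were called, all higher, 4 with the replicate number as a block, where Cidec lost its call (0.95), and 3 in limma on log2(FPKM + 1). Of 9 B lineage genes, 1 was called higher (Igll1), and the sum was 782 to 1033 CPM in Sham, 1333 to 1428 in OVX and 929 to 1369 in the treated libraries. Called or not, 9 of 9 B lineage genes and 8 of 10 adipocyte genes were higher in OVX than in Sham without overlap, beside 12.7% of all genes. None of these adipocyte and B lineage genes was at 0 throughout a group. The summed level of 14 skeletal muscle genes was 12500, 8517 and 2171 CPM in Sham replicates 1 to 3, 4592, 2615 and 2192 in OVX, and 6433, 2862 and 760 in the treated libraries, with 0 called. The log2FC in OVX vs Sham was below 0 for 14 of these 14 genes, and muscle was highest in the Sham library with the least Bglap. The part of adipocytes, B lineage cells and muscle in the Bglap difference was not tested.

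In the same comparison, 0 genes were called among 12 osteoclast, 12 chondrocyte, 10 tendon, periosteum and fibroblast, 15 erythroid, 11 neutrophil, 12 macrophage, 8 endothelial and 8 proliferation genes tested. In treated vs Sham, 1 chondrocyte gene was called, the cartilage matrix gene Matn1 (log2FC -2.14, SE 0.90). Its counts were low, at 160, 41 and 38 in Sham replicates 1 to 3 and 33, 19 and 3 in the treated libraries. Uncalled markers nevertheless stood apart in some of these lists. Of the 11 neutrophil genes, 5 (Elane, Mpo, Ctsg, Cxcr2 and Fcnb) were higher in OVX than in Sham without overlap, with log2FC from 0.46 to 0.86, beside 12.7% of all genes higher without overlap. The neutrophil sum was 12765 to 17746 CPM in Sham, 15643 to 20666 in OVX and 17893 to 23006 in the treated libraries. The log2FC in OVX vs Sham was below 0 for 11 of 12 chondrocyte genes, with a median of -0.65, and their sum was 1425 to 4016 CPM in Sham, 716 to 2624 in OVX and 1154 to 2533 in the treated libraries. It was also below 0 for 13 of 15 erythroid and 7 of 8 endothelial genes. The part of these cells in the Bglap difference was not tested. Osteoclast genes summed to 2349 to 4396 CPM in Sham and 3185 to 4198 in OVX. The tendon, periosteum and fibroblast sum was lowest in OVX replicate 3 (567 CPM), the library with the least Postn, against 950 and 1142 in the other 2 OVX libraries, 867 to 1008 in Sham and 620 to 1057 in the treated ones. The macrophage sum, given here beside Spp1, was 1046 to 1246 CPM in OVX, 820 to 1400 in Sham and 943 to 1135 in the treated libraries. Their part in these 2 genes' spread was not tested.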

How the data were processed

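For 23026 genes the authors deposited 2 tables, one of counts in whole numbers and one of FPKM. Per the labels, poly(A) RNA gave strand-specific libraries. Per the methods, reads were cleaned with NGS QC Toolkit, mapped by Tophat/Bowtie2 and summarized per gene by eXpress. The submitters' processing notes name the build mRatBN 7.2, and the annotation release is not given in the sources used here. The methods describe 3 independent biological replicates per group. Depth was 34874880 to 37298250 counts per library.

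Differences were fitted in edgeR 4.0.16 (R 4.3.3) with its quasi-likelihood test (TMM, default filter with a minimum count of 10, all 9 libraries in 1 fit, group as the only term), which was tested on simulated data. Adjusted p-values are Benjamini-Hochberg over all 16874 genes tested. The common BCV (biological coefficient of variation) came to 0.256. CPM are TMM-scaled. Alternatives were RLE size factors, no filter, DESeq2 1.42.0, limma 3.58.1 on log2(FPKM + 1) or log2(FPKM + 0.1), a threshold of 0.58, only the groups compared, muscle and erythroid genes left out, a replicate block and each library left out. Correlations used log2 CPM with a prior count of 2 and 1e+05 permutations, and other tests Python 3.11.15 with scipy 1.17.1.

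The 9 genes and the gene lists were chosen with earlier results of these data known. Beyond the 9, the rule admitted the 3 genes most correlated with each of them and list genes past the thresholds or, failing these, the 2 with the largest absolute log2FC per list. Genes of the pathway outside this rule (Runx1, Col1a1, Col1a2, Ifitm5, Alpl, Dmp1, Sost, Mepe, Aspn and Dlx6) were named for their roles after their values were known. Phospho1, Slc20a1 and the neutrophil genes Elane, Mpo, Ctsg, Cxcr2 and Fcnb were named because their libraries did not overlap in OVX vs Sham. Same-numbered OVX and OVX-AS-IV-High libraries had deviations from their group means that correlated weakly (0.31, 0.158 and 0.13). They were taken pair by pair for this reason alone, since the methods give no pairing. The pairing thus came from these same data and not from the design. Sham gave 0.2, -0.161 and 0.253 with OVX and 0.314, -0.158 and 0.435 with OVX-AS-IV-High. It was not taken pair by pair. Promoter sequences are from RefSeq on GRCr8, which differs from the build of the counts.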

Additional observations from a re-analysis of the deposited data

How the results depend on the processing

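Bglap in OVX vs Sham kept its direction in all 18 alternatives, with a log2FC of 0.94 to 1.58 when each library was left out and 1.21 to 1.31 otherwise, and lost its call only without Sham replicate 1. With a replicate block it was 1.27 (adjusted p = 0.0574 in edgeR), and in treated vs OVX it was -0.50 (adjusted p = 0.653). The block changed no call among the 9 genes. Of the list genes named as called, Lox (0.93) and Fgf23 (-0.74) lost their calls in OVX vs Sham in limma on log2(FPKM + 1), filtered or not. Cbfb (0.9952), Phex (0.84), Cidec (0.76) and Lep (0.72) lost theirs in treated vs Sham in the same settings. Igll1 and Matn1 were not followed over the alternatives.

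The number of the 9 genes called ranged from 0 to 1 in OVX vs Sham and in treated vs Sham with each library left out, and was 0 throughout in treated vs OVX. Over all genes, 525 were called in OVX vs Sham, 140 in treated vs OVX and 531 in treated vs Sham. In that order, limma on log2(FPKM + 1) called 75, 13 and 84 genes, with a pseudocount of 0.1 it called 315, 80 and 353, and without the filter 73, 13 and 77. The threshold of 0.58 gave 1174, 369 and 1167. Counts without the filter gave 791 and 274 in the first 2 comparisons. Leaving out libraries gave 387 to 1064, 141 to 219 and 409 to 940, the highest without Sham replicate 3, treated replicate 1 and treated replicate 1.

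Small differences changed sign, and the cause was not tested. By FPKM, Postn in OVX vs Sham was -0.046 with a pseudocount of 1, filtered or not, and -0.049 with 0.1, Omd in treated vs OVX was -0.086 and -0.091, and Dlx5 in treated vs Sham was -0.024 and -0.028. With the replicate block, Omd was -0.032 in treated vs OVX and Dlx5 -0.016 in treated vs Sham. With each library left out, log2FC in OVX vs Sham ranged from -0.16 to 0.086 for Runx2, -0.20 to 0.70 for Spp1 and -0.36 to 0.36 for Postn. In treated vs OVX it ranged from -0.30 to 0.019 for Sp7, -0.82 to 0.080 for Spp1, -0.40 to 0.25 for Omd and -0.26 to 0.45 for Postn. In treated vs Sham it ranged from -0.16 to 0.16 for Dlx5, -0.54 to 0.090 for Ibsp, -0.39 to 0.16 for Spp1, -0.16 to 0.54 for Sparc and -0.084 to 0.35 for Postn, and the median of the 9 genes from -0.0059 to 0.35. In alternatives added after the data were seen, the log2 ratio of Bglap to Ibsp in treated vs OVX ranged from -0.24 to 0.29, and that of Bglap to Col1a1 in OVX vs Sham from -0.0025 to 0.35.

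With 3 libraries a group, no exact permutation test can go below p = 0.1, and intervals of Ibsp, Spp1, Sparc and Postn span 2-fold or nearly 2-fold differences. The conflict between the 3 vehicle labels within Sham and the methods limits the comparisons with Sham, and the unstated handling of marrow limits every comparison.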
